A study of Mus musculus with 12 samples.

Results

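The genes described here are the serpins, a family of protease inhibitors, together with the plasminogen system and the proteins that start and restrain clotting, on which many serpins act. Members were taken by symbol from the array annotation: every probe set with a single symbol that begins with Serpin, a clade letter from a to i and a number (leaving out Serpinh1, a collagen chaperone), and those named Plat, Plau, Plaur, Plg, Tfpi, Tfpi2, F3, Thbd or Procr. This gave 56 probe sets for 56 genes, of 21789 single-symbol probe sets for 19938 genes in all.

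The arrays came from Esrrb_R mouse embryonic stem cells (AINV15 Esrrb Rescue Clone), a single clonal line that expresses the rtTA activator. Cells at day 0 were grown in 1 µg/ml doxycycline (Dox), and cells at days 1, 3 and 5 had gone without it for that number of days. In all groups, day 0 included, a short hairpin RNA silenced the endogenous Esrrb gene, and a Dox-dependent copy that the hairpin does not recognise replaced it. The log2 signal of messenger RNA was read from 12 arrays (Affymetrix Mouse Gene 1.0 ST), 3 biological replicates for each of the 4 days. Cultures were kept in serum with Lif, on gelatin without feeder cells, while the line itself is maintained on mouse embryonic fibroblasts. No cells kept in Dox for 5 days were among the arrays, so loss of Esrrb, removal of Dox and time in culture cannot be told apart.

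The plasminogen system dissolves fibrin and other matrix around cells. Plasminogen is cut into the protease plasmin by the tissue activator Plat or by the urokinase Plau, which Plaur holds at the cell surface, and serpins trap these proteases in complexes that cannot be undone. Tissue factor (F3) starts clotting, Tfpi blocks it, and thrombomodulin (Thbd) with the receptor Procr turns thrombin toward activating the anticoagulant protein C. In the early mouse embryo, parietal endoderm is known for secreting Plat, and Thbd is known in parietal endoderm and trophoblast.

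Esrrb itself had a log2 signal of 11.54 to 11.63 at day 0, 9.09 to 9.16 at day 1, 8.07 to 8.34 at day 3 and 8.13 to 8.28 at day 5, and was lower than at day 0 by limma on all 3 later days. The defining markers of embryonic stem cells were bright on all 12 arrays, at or above 11.16. From day 0 to day 5 in order, Pou5f1 was 12.36 to 12.48, 12.38 to 12.51, 12.29 to 12.35 and 11.80 to 12.05, and Sox2 was 12.23 to 12.33, 11.98 to 12.10, 11.86 to 11.90 and 11.56 to 11.73. Nanog was 11.96 to 12.14 at day 0, 11.16 to 11.29 at day 1, 11.40 to 11.44 at day 3 and 11.75 to 11.83 at day 5, and was lowest at day 1. The array medians lay between 6.92 and 7.05, and quality weights estimated from the residuals ranged from 0.54 to 1.99. There is no read depth for arrays, and the precision is limited by how many were run. In bulk RNA, fewer cells of a type and less RNA per cell cannot be told apart.

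By day 5, Plat, Plaur, F3, Thbd, Procr and Serping1 and the clade B serpins Serpinb5, Serpinb6a, Serpinb6b, Serpinb8, Serpinb9 and Serpinb9e were higher than at day 0, and Serpinb2, Serpini1, Serpinf1 and Serpinb1a were lower. These 12 higher and 4 lower members made 28.6% of the 56, against a background of 35.0% of all genes called by limma, with 17.4% of all genes higher and 17.6% lower. The share of members higher at day 5 was 21.4%, and the share lower was 7.14%. Most members are dim, so shares at matched signal are given too. Of the 11 members at or above the median signal of all genes, 54.5% were higher and 18.2% lower. All genes at that level gave 27.4% and 25.2%. Of the 45 members under the median, 13.3% were higher and 4.44% lower, against 7.48% and 9.97% of all such genes. These shares rest on few members. At day 3, Plat and F3 were higher and 9 members were lower (19.6%, against 26.6% of all genes, with 13.5% higher and 13.1% lower). At day 1, Plaur was higher and Serpinb1a, Serpini1 and Tfpi were lower (1 and 3 members, 7.14%, against 10.9% of all genes, with 6.45% higher and 4.48% lower).

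At day 3 against day 1, 3 members were higher and 9 were lower (21.4%, against 20.8% of all genes, with 9.2% higher and 11.6% lower). At day 5 against day 3, 13 were higher (23.2%, against 13.0% of all genes). Only 1, Serpini1, was lower (1.79%, against 12.2%). Together these made 25.0%, against 25.3% of all genes. Of members at or above the median signal 63.6% were higher and 9.09% lower, against 21.4% and 17.9% of such genes. Of members under it 13.3% were higher and 0.0% lower, against 4.68% and 6.61%. The 13 included Plat, Plau, Plaur, F3, Thbd and Procr. The median member changed by -0.02, -0.03 and 0.02 at days 1, 3 and 5, against 0.01, 0.00 and -0.02 for all genes. The F test over the 3 days called 19 members (33.9%, against 45.6% of all genes). No contrast called 35 of the 56 members, and among these the largest change of each gene against day 0 was -0.61 in Serpina1c and -0.48 in Serpinb9d, both at day 1, and 0.24 or less in size in all others.

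**Figure D1:**
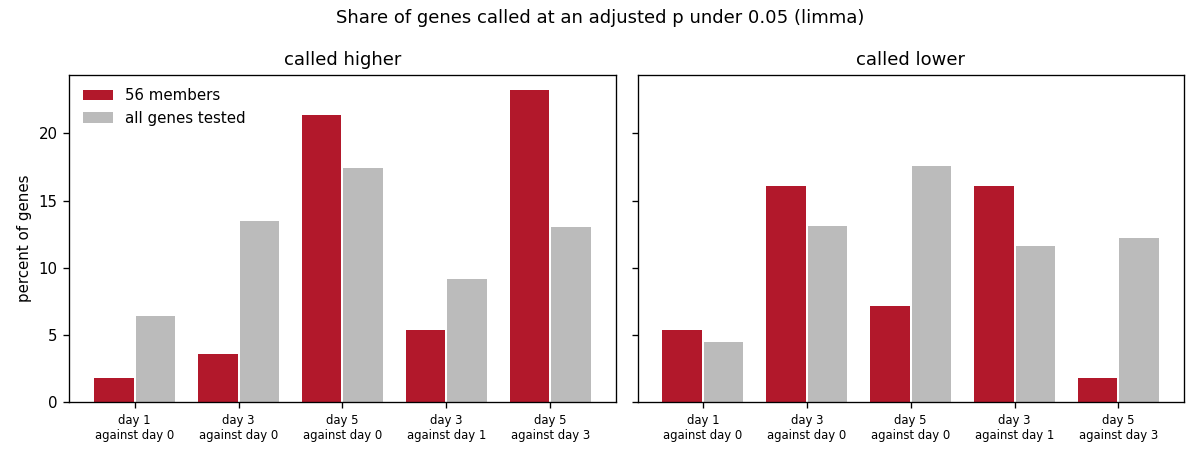
Percent of the 56 members (red) and of all genes tested (grey) called higher (left panel) or lower (right panel) in each of 5 contrasts by limma at an adjusted p under 0.05. The share of members higher is 21.4% at day 5 against day 0 and 23.2% at day 5 against day 3, with 17.4% and 13.0% of all genes.

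Most members were dim: 45 of the 56 had a mean signal under the median of all genes, and 11 were at or above it. Those 11 were Plat, Plaur, F3, Thbd, Tfpi, Serpinb6a, Serpinb6c, Serpinb9b, Serpinf1, Serping1 and Serpini1, and the F test called each of them. Of all genes at or above the median signal the F test called 68.9%. Of the 45 dimmer members it called 8 (17.8%), against 22.2% of all genes under the median.

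Plat, the tissue plasminogen activator, rose at days 3 and 5. Its log2 signal on the 3 arrays of each day was 8.04, 7.99 and 7.94 at day 0, 8.43, 8.46 and 8.17 at day 1, 9.42, 9.12 and 9.13 at day 3, and 10.69, 11.12 and 10.95 at day 5. The arrays of the 4 days did not overlap, and each later day lay above the one before it. The change against day 0 was 0.36 ± 0.11 (SE) at day 1, which missed the threshold (adjusted p = 0.062 from limma), 1.23 ± 0.11 at day 3 (adjusted p = 4.3e-06) and 2.93 ± 0.11 at day 5 (adjusted p = 1.9e-09), a 7.63-fold higher signal. The day 1 difference passed the threshold when the model let the spread vary with signal (adjusted p = 0.021), with array weights (0.033), among genes at or above the median alone (0.017), and without any 1 of the arrays of day 1 replicate 3 (adjusted p = 0.043), day 3 replicate 1 (adjusted p = 0.049), day 5 replicate 1 (adjusted p = 0.034) and day 5 replicate 2 (adjusted p = 0.042). Day 5 was above day 3 by 1.70 ± 0.11 (adjusted p = 5.7e-07). Changes are given with their standard error from limma throughout.

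Plau, the urokinase activator, was lower at day 3. Its log2 signal was 6.84, 7.06 and 6.97 at day 0, 6.90, 7.04 and 7.09 at day 1, 6.35, 6.41 and 6.51 at day 3, and 7.26, 7.07 and 7.05 at day 5. The day 3 arrays were below all others, and the day 5 arrays overlapped those of day 0. Plau fell by 0.53 (SE 0.08) at day 3 (adjusted p = 0.00026 from limma), and its day 5 difference of 0.17 ± 0.08 was not called (adjusted p = 0.12). From its low point it was 0.70 ± 0.08 higher at day 5 than at day 3 (adjusted p = 3.5e-05).

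Plaur, the receptor for urokinase, was higher at days 1 and 5. Its log2 signal was 9.29, 9.35 and 9.30 at day 0, 9.75, 9.88 and 9.76 at day 1, 9.26, 9.12 and 9.31 at day 3, and 10.11, 10.17 and 10.13 at day 5. All arrays of day 1 and of day 5 were above those of day 0, while the day 3 arrays overlapped them. Plaur was higher at day 1 by 0.48 ± 0.06 (adjusted p = 0.00028 from limma). At day 3 the change was -0.09 ± 0.06 (adjusted p = 0.36), and at day 5 it was 0.82 ± 0.06 (adjusted p = 3.3e-07). Plg, the plasminogen that both activators cut and that is made mainly in the liver, lay between 6.04 and 6.24 on all 12 arrays, and no contrast called it.

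**Figure D2:**
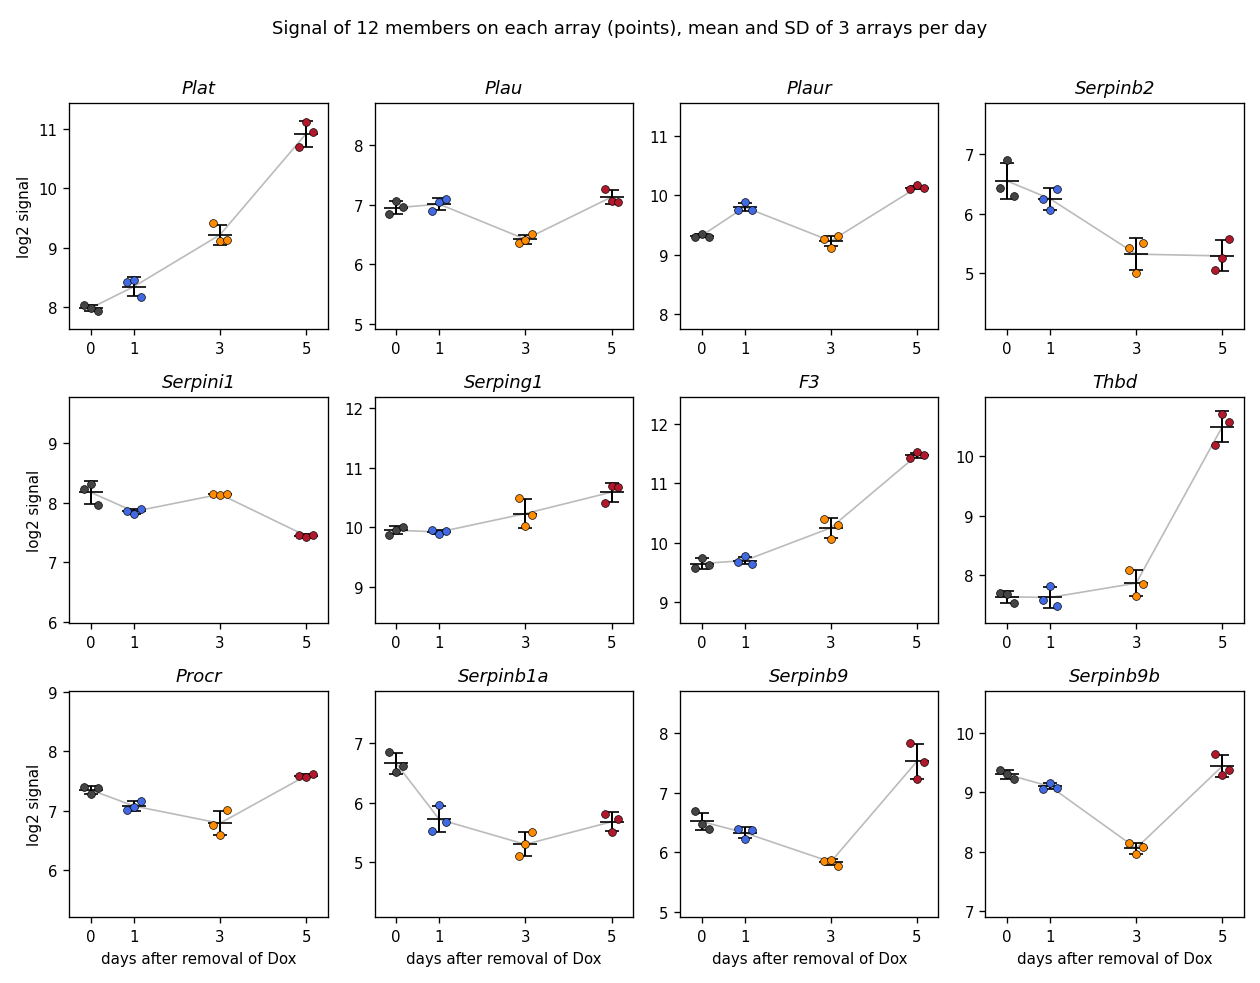
Log2 signal (vertical axis, the same span in each panel) of 12 members against days after removal of Dox (horizontal axis); points are single arrays, and bars give the mean and SD of 3 arrays. Plat and F3 climb at days 3 and 5 and Thbd at day 5, whereas Plau, Procr, Serpinb9 and Serpinb9b have their lowest values at day 3.

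Of the 3 measured serpins that inhibit plasminogen activators, 2 fell and none rose at day 5. Serpinb2, the plasminogen activator inhibitor of macrophages and keratinocytes, had a log2 signal of 6.44, 6.90 and 6.30 at day 0, 6.24, 6.07 and 6.42 at day 1, 5.43, 5.01 and 5.51 at day 3, and 5.06, 5.25 and 5.57 at day 5. Every array of days 3 and 5 was below every array of days 0 and 1. Serpinb2 fell by 1.23 (SE 0.17) at day 3 (adjusted p = 0.00015 from limma) and by 1.25 (SE 0.17) at day 5 (adjusted p = 7.8e-05), and its difference between days 5 and 3 was -0.02. Its mean signal was under the median of all genes.

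Serpini1, neuroserpin, which inhibits Plat in the nervous system, had a log2 signal of 8.23, 8.32 and 7.96 at day 0, 7.86, 7.80 and 7.90 at day 1, 8.14, 8.12 and 8.14 at day 3, and 7.46, 7.42 and 7.46 at day 5. The 3 arrays of day 5 were the lowest of the 12, and those of day 3 lay within the range of day 0. Serpini1 fell by 0.73 (SE 0.08) at day 5 (adjusted p = 9e-06 from limma). A smaller fall of 0.32 (SE 0.08) at day 1 (adjusted p = 0.021) did not survive leaving out replicate 1 or 2 of day 0 (adjusted p = 0.081 and 0.079) or replicate 1 or 2 of day 1 (adjusted p = 0.061 and 0.08), or testing every probe set (adjusted p = 0.051). Serpina5, the protein C inhibitor, which also binds urokinase, lay between 5.36 and 6.01 on all arrays, and no contrast called it.

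Plat was set beside each of these serpins by subtracting the log2 signals on the same array. Probe sets differ in their response, so only the change of such a difference can be read, not its level. Plat minus Serpinb2 was 5.63, 5.87 and 5.39 at day 5, against 1.60, 1.09 and 1.64 at day 0, and the difference widened by 4.18. The same quantity widened by 3.66 for Serpini1, with 3.23, 3.70 and 3.50 at day 5, against -0.19, -0.33 and -0.02 at day 0. For Serpina5 it widened by 2.96, with 5.00, 5.29 and 5.48 at day 5, against 2.31, 2.63 and 1.93 at day 0. The arrays of day 5 did not overlap those of day 0 for any of the 3 serpins. Each difference holds the rise of Plat, 2.93 by itself. Those for Serpinb2 and Serpini1 also hold the falls of these genes at day 5, of 1.25 and 0.73. All of them restate values given above. An exact permutation test of the day 5 arrays against those of day 0 gave p = 0.1 for each serpin. That is the smallest p possible with 3 arrays a day, so the test cannot decide.

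**Figure D3:**
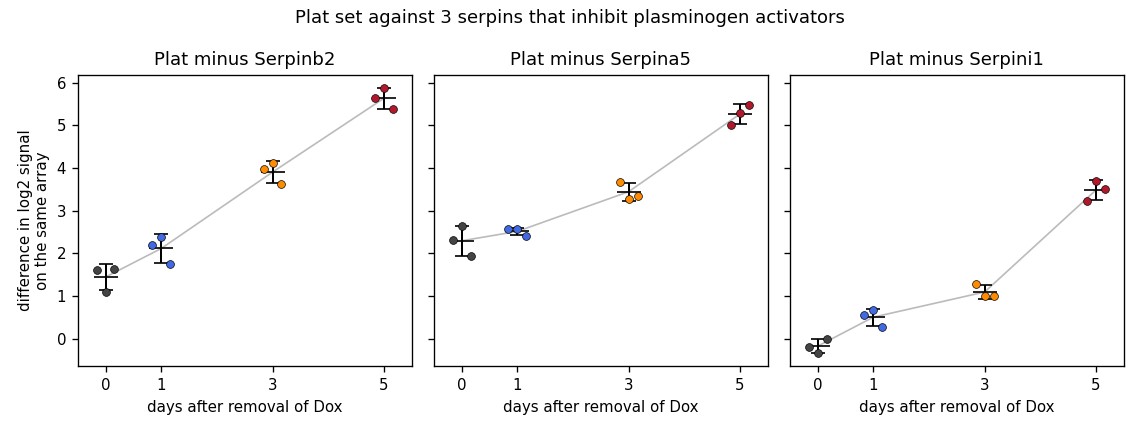
Plat log2 signal minus that of Serpinb2, Serpina5 or Serpini1 on the same array (vertical axis) against days after removal of Dox (horizontal axis); points are arrays, and bars give the mean and SD of 3 arrays. All 3 differences are largest at day 5, and only their change over the days, not their height, can be compared between panels.

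Further along the pathway, Serping1, the C1 inhibitor, which restrains complement and can also trap plasmin, had a log2 signal of 9.87, 9.96 and 10.01 at day 0, 9.95, 9.89 and 9.93 at day 1, 10.49, 10.02 and 10.20 at day 3, and 10.41, 10.70 and 10.67 at day 5. All day 5 arrays were above all day 0 arrays, as were those of day 3 by a small margin. Serping1 rose by 0.65 ± 0.11 at day 5 (adjusted p = 0.00032 from limma), and its day 3 difference of 0.29 ± 0.11 was not called (adjusted p = 0.065). That difference passed the threshold among genes at or above the median alone (adjusted p = 0.023), with quantile normalization (0.039), when the spread could vary with signal (0.028), with array weights (0.049), and when the array of day 3 replicate 2 was left out (adjusted p = 0.015), as when that of day 5 replicate 1 was (adjusted p = 0.047). Serpinf2, alpha-2-antiplasmin, the main inhibitor of plasmin in blood, changed by 0.06, 0.11 and -0.06 at days 1, 3 and 5, and none of these was called.

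Among the clotting proteins, F3 and Thbd had large rises at day 5. F3, tissue factor, had a log2 signal of 9.57, 9.75 and 9.62 at day 0, 9.68, 9.78 and 9.65 at day 1, 10.40, 10.07 and 10.29 at day 3, and 11.43, 11.52 and 11.47 at day 5. Days 0 and 1 overlapped, and days 3 and 5 each lay above them and apart from each other. F3 rose by 0.60 ± 0.08 at day 3 (adjusted p = 0.00011 from limma) and by 1.82 ± 0.08 at day 5 (adjusted p = 5e-09), a 3.54-fold higher signal.

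Thbd, the thrombin receptor thrombomodulin, had a log2 signal of 7.70, 7.68 and 7.53 at day 0, 7.58, 7.82 and 7.48 at day 1, 8.09, 7.66 and 7.85 at day 3, and 10.20, 10.71 and 10.58 at day 5. Only the day 5 arrays stood apart from the rest. Thbd rose by 2.86 ± 0.14 at day 5 (adjusted p = 7.5e-09 from limma), a 7.25-fold higher signal, and 2.63 ± 0.14 of this was between days 3 and 5 (adjusted p = 1.2e-07). Its day 3 difference from day 0 was 0.23 ± 0.14 (adjusted p = 0.27).

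Procr, the endothelial protein C receptor, which presents protein C to the complex of thrombin and Thbd, fell at day 3 and was higher than day 0 at day 5. Its log2 signal was 7.40, 7.28 and 7.38 at day 0, 7.02, 7.06 and 7.17 at day 1, 6.76, 6.60 and 7.01 at day 3, and 7.59, 7.57 and 7.62 at day 5. The day 1 and day 3 arrays were below those of day 0, and the day 5 arrays were above them. Procr fell by 0.56 (SE 0.09) at day 3 (adjusted p = 0.00032 from limma) and was 0.24 ± 0.09 higher than day 0 at day 5 (adjusted p = 0.045). The day 5 call against day 0 was lost in 9 of the 12 fits that left out 1 array, with adjusted p between 0.054 and 0.13 in those 9, and with quantile normalization (adjusted p = 0.092), array weights (0.096) and every probe set tested (0.08), while the difference of 0.80 ± 0.09 between days 5 and 3 (adjusted p = 2.2e-05) was called in all 12.

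Tfpi, the inhibitor of the tissue factor pathway, was bright and changed by small amounts, with log2 signals of 12.61, 12.59 and 12.58 at day 0, 12.36, 12.39 and 12.37 at day 1, 12.45, 12.31 and 12.42 at day 3, and 12.39, 12.61 and 12.45 at day 5. The arrays of days 1 and 3 were all below those of day 0, and those of day 5 overlapped them. Its falls of 0.22 (SE 0.06) at day 1 (adjusted p = 0.04 from limma) and of 0.20 (SE 0.06) at day 3 (adjusted p = 0.034) were lost in 8 and 5 of the 12 fits without 1 array, and both were lost with every probe set tested (adjusted p = 0.073 and 0.056), that of day 3 also with quantile normalization (adjusted p = 0.054). Tfpi2 and the clotting serpins Serpinc1 (antithrombin), Serpind1 (heparin cofactor II) and Serpina10 (the protein Z-dependent protease inhibitor) were called in none of the 5 contrasts, with changes against day 0 between -0.13 and 0.14.

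Windows of 250 bases before transcript starts were read from RefSeq (GRCm38.p6) for 45 of the 56 members, in 56 windows, and searched on both strands for 5 motifs. Plat, Thbd, Plau, Serping1 and Serpinb1a were among the members with no window, so they were not searched. TGANTCA, which takes in the AP-1 sites TGACTCA and TGAGTCA, was in 14 of the 56 windows (25.0%), against 6.75% of all 32851 windows of that length. The windows with a match belonged to 13 genes, among them F3, Plaur, Procr and Serpinb2 but also Serpinb7, Serpinb10 and Serpinb11, which no contrast called. GGGCGG, an Sp1 motif, was in 10 windows (17.9%, against 32.7% of all), and TATAAA, a core promoter element, was in 15 (26.8%, against 12.4%). AAGGTCA, the site that Esrrb binds as a monomer, was in 7 windows (12.5%, against 4.08%), of Serpina16, Serpinb12, Serpinb3d, Serpinb6d, Serpinb9d and Serpinb9e, of which Serpinb9e alone was called against day 0. TGACGTCA, a CRE, was in 0 windows, against 1.55% of all. Windows of related serpins, and of 1 gene with several starts, are not independent. The windows of 4 genes whose values are given above are shown with motif matches in capitals, each on the plus strand of GRCm38.p6:
Plaur, chr7:24462233-24462482: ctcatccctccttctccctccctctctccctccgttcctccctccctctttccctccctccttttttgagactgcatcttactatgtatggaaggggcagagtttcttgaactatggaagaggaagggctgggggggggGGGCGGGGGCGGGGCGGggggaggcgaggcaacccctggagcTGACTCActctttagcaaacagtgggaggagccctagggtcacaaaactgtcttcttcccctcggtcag
Serpinb2, chr1:107511173-107511422: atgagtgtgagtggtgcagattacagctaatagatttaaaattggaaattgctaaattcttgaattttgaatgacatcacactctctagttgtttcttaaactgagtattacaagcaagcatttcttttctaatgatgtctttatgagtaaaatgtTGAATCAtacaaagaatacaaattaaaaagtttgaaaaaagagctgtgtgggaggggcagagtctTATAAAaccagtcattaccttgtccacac
F3, chr3:121723287-121723536: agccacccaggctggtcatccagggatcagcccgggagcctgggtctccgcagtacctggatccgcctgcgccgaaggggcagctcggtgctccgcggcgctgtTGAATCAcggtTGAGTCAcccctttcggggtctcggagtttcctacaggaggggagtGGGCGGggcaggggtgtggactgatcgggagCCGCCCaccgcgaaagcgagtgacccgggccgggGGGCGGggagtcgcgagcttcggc
Procr, chr2:155750967-155751216: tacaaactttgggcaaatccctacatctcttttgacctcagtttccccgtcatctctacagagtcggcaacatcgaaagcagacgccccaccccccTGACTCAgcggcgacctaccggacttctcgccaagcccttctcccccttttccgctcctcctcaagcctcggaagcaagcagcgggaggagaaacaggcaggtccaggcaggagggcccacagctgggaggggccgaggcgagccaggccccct
TGANTCA began 69 bases before the start in Plaur, 94 in Serpinb2, 146 and 135 in F3 and 154 in Procr. In Plaur 3 GGGCGG matches lie in 1 run at 111, 105 and 100 bases, the last pair overlapping, and F3 has 3 at 89, 58 and 24 bases, that at 58 on the other strand. Serpinb2 has a TATAAA 29 bases before this start, 1 of 2 with a window read here. The annotated genes of Plaur, Serpinb2 and Procr, and of Serpinb9 shown further on, begin upstream of the starts used, so these need not be their only starts. These genes moved in different ways over the days, and a match of letters is a description, not a binding site.

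The other clade B serpins, which act mostly inside cells, held most of the remaining calls. Serpinb9, an intracellular inhibitor of the killer cell protease granzyme B, had a log2 signal of 6.69, 6.48 and 6.40 at day 0, 6.40, 6.23 and 6.37 at day 1, 5.85, 5.88 and 5.78 at day 3, and 7.84, 7.23 and 7.52 at day 5. All day 3 arrays were below all others, and all day 5 arrays were above all others. Serpinb9 fell by 0.69 (SE 0.12) at day 3 (adjusted p = 0.001 from limma) and rose by 1.00 ± 0.12 at day 5 (adjusted p = 2.8e-05), and days 5 and 3 differed by 1.69 ± 0.12 (adjusted p = 1.1e-06).

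Its close relative Serpinb9b, a neighbour on chromosome 13, also fell at day 3. Its log2 signal was 9.37, 9.31 and 9.23 at day 0, 9.05, 9.16 and 9.08 at day 1, 8.15, 7.96 and 8.08 at day 3, and 9.64, 9.29 and 9.38 at day 5. The day 3 arrays were below all 9 others, and the day 5 arrays overlapped those of day 0. Serpinb9b fell by 1.24 (SE 0.09) at day 3 (adjusted p = 3.4e-07 from limma), and its day 5 difference from day 0 was 0.14 ± 0.09 (adjusted p = 0.26). Day 5 was above day 3 by 1.37 ± 0.09 (adjusted p = 3.4e-07).

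The windows before the starts of this pair are shown because both genes were lowest at day 3, and neither window held any of the 5 motifs, so neither has capitals. Both are on the plus strand of GRCm38.p6 (RefSeq):
Serpinb9, chr13:33004291-33004540: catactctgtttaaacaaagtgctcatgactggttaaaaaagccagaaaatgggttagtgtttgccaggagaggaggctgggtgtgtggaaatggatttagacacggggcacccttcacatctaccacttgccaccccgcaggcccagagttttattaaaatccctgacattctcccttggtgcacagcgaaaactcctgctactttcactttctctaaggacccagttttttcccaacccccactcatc
Serpinb9b, chr13:33027164-33027413: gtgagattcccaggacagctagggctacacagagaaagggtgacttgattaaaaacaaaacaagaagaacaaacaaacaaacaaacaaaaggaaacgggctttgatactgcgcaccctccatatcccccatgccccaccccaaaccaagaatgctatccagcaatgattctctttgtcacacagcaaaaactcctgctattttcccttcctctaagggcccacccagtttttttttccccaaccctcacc
In a global alignment 146 of 232 aligned bases were identical (62.9%), against 46.2% for Procr with Serpinb9 and 52.0% for F3 with Serpinb9. Members of the Serpinb9, Serpinb6, Serpina1 and Serpina3 families are closely related, and an array probe can pick up RNA of several, so the values of these genes are less certain than those of Plat, F3 or Thbd.

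Serpinb1a, an inhibitor of neutrophil elastase, was the 1 member called lower on all 3 later days. Its log2 signal was 6.85, 6.52 and 6.62 at day 0, 5.53, 5.97 and 5.67 at day 1, 5.10, 5.31 and 5.50 at day 3, and 5.81, 5.50 and 5.73 at day 5. No array of a later day reached the lowest of day 0. Serpinb1a fell by 0.94 (SE 0.13) at day 1 (adjusted p = 0.00056 from limma), by 1.36 at day 3 (adjusted p = 6.2e-06) and by 0.98 at day 5 (adjusted p = 5.8e-05). At day 1 this was the largest change in size of any member.

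A pair of dimmer clade B serpins rose at day 5 alone. Serpinb8, a relative that can inhibit the protein-processing enzyme furin, had a log2 signal of 6.30, 6.06 and 6.15 at day 5, against 5.49, 5.58 and 5.65 at day 0. It rose by 0.60 ± 0.07 (adjusted p = 2.5e-05 from limma). Serpinb9e had 5.68, 5.47 and 5.47 at day 5, against 4.81, 5.02 and 5.04 at day 0, and rose by 0.59 ± 0.10 (adjusted p = 0.00058). In both genes the day 5 arrays were above all 9 others. Smaller rises at day 5, between 0.22 and 0.38, were called for Serpinb5, Serpinb6a and Serpinb6b. Serpinb5 was dim, its day 5 arrays overlapped those of day 0, and the F test did not call it (adjusted p = 0.12 from limma).

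Of the 24 clade B serpins, the 11 on chromosome 1 and the 13 on chromosome 13 are 2 gene clusters. At day 3, 1 was lower on chromosome 1 (9.09%) and 3 on chromosome 13 (23.1%), against 13.1% of all genes, and none was higher. At day 5, 2 were higher and 1 was lower on chromosome 1 (18.2% and 9.09%), and 4 were higher and 1 was lower on chromosome 13 (30.8% and 7.69%), against 17.4% of all genes higher and 17.6% lower. With so few genes in a cluster, these shares can be read only as counts. The median change of the clade was -0.05, -0.09 and 0.06 at days 1, 3 and 5, against 0.01, 0.00 and -0.02 for all genes.

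None of the 15 clade A serpins, secreted inhibitors that in the adult come largely from the liver, was called in any contrast or by the F test. All 15 were under the median signal of all genes, where the F test called 22.2% of genes and the day 5 contrast 17.5%. Of these, 14 lie in a cluster on chromosome 12 and Serpina7, the thyroxine-binding globulin, lies on X. Their changes against day 0 ran from -0.61 to 0.48, both of these in Serpina1c, an alpha-1-antitrypsin gene, whose 3 arrays spread widely within a day (SD 0.67 at day 0 and 0.71 at day 5).

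Outside these clades, Serpinf1, the pigment epithelium-derived factor, a serpin with no inhibitor activity, had a log2 signal of 8.00, 8.11 and 7.83 at day 0, 7.82, 7.80 and 7.82 at day 1, 7.26, 7.15 and 7.27 at day 3, and 7.41, 7.18 and 7.15 at day 5. The arrays of days 3 and 5 were below all arrays of days 0 and 1. Serpinf1 fell by 0.75 (SE 0.08) at day 3 (adjusted p = 1.7e-05 from limma) and by 0.73 (SE 0.08) at day 5 (adjusted p = 1.1e-05). Serpini2 was called lower at day 3 by 0.26 (SE 0.09), close to the threshold, and Serpine3 was not called.

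**Figure D4:**
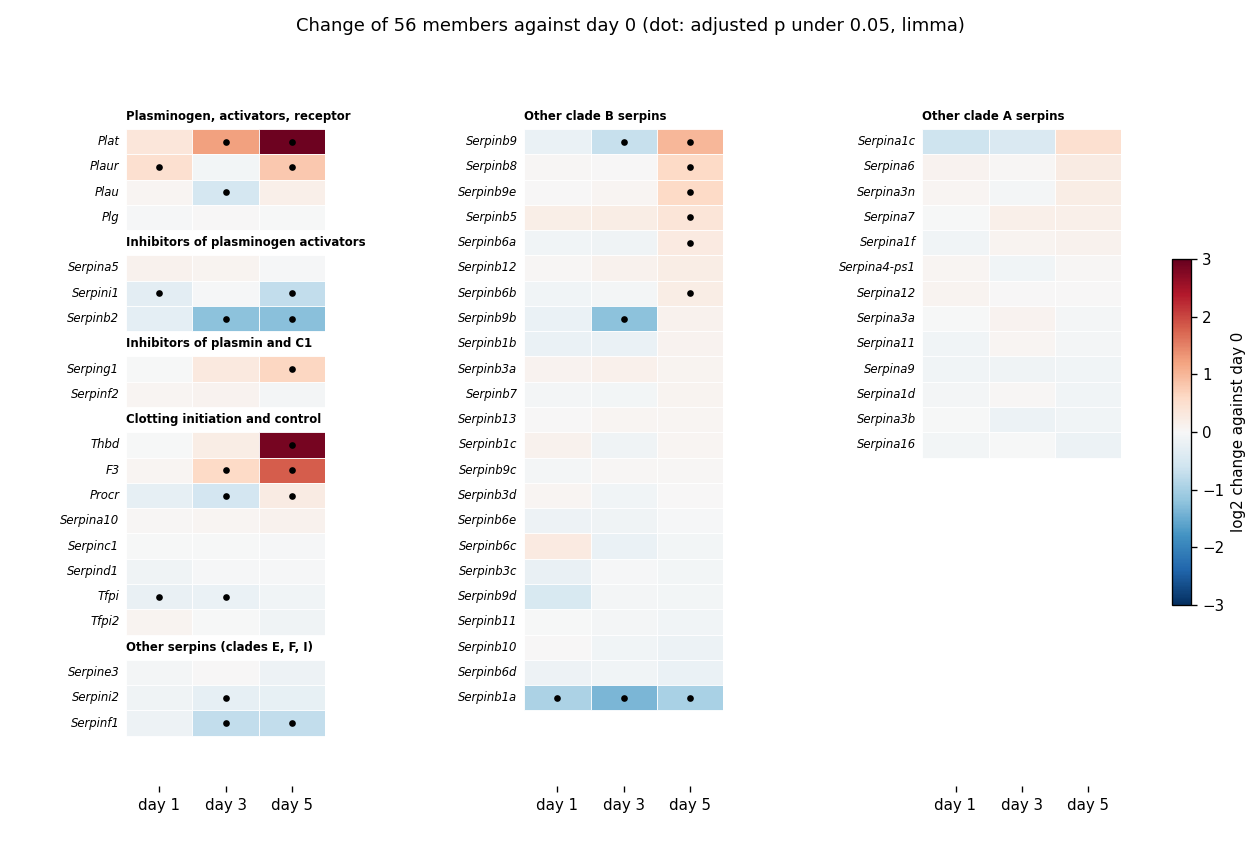
Log2 change against day 0 at days 1, 3 and 5 (columns) for the 56 members (rows, grouped by role or clade and sorted by their day 5 change within a group); red is higher and blue is lower than day 0, and a dot marks an adjusted p under 0.05 from limma. Plat, Thbd and F3 are the deepest red at day 5, and none of the clade A serpins has a dot.

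Receptors, substrates and partners of these proteins were taken from a list of 35 genes, of which 31 were measured. At day 1, 3 were higher and 1 was lower (12.9%, against 10.9% of all genes), at day 3, 5 were higher and 4 were lower (29.0%, against 26.6%), and at day 5, 8 were higher and 4 were lower (38.7%, against 35.0%). These shares were near the background. Vldlr, an endocytic receptor that takes up complexes of proteases with serpins, was higher by 0.64, 1.68 and 1.65 at days 1, 3 and 5 (adjusted p = 0.0051, 6.1e-07 and 3.4e-07 from limma). Lrp2, a receptor of the same family, was higher by 0.63 at day 1 (adjusted p = 0.00017) and by 0.30 at day 3.

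Anxa2, which with S100a10 gathers Plat and plasminogen at the cell surface, had log2 signals of 11.76 to 11.83 at day 5, against 10.53 to 10.72 at day 0, and was 1.19 ± 0.07 higher (adjusted p = 5.5e-08 from limma). St14, the membrane protease matriptase, was higher by 0.53 at day 3 (adjusted p = 0.00023) and by 0.94 at day 5 (adjusted p = 8.3e-07). F2 (prothrombin) and F5, a clotting cofactor, were higher by 0.82 and 0.55 at day 5 (adjusted p = 0.00083 and 0.0016).

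Fgg, the gamma chain of fibrinogen, fell by 0.77, 0.70 and 0.87 at days 1, 3 and 5 (adjusted p = 0.00093, 0.00056 and 5.5e-05 from limma). It was dim, with a mean log2 signal of 5.77 at day 0 and 4.9 at day 5. The other fibrinogen chains, Fga and Fgb, were called in no contrast. Pros1, the protein S that helps activated protein C, fell by 0.52 at day 3 (adjusted p = 0.00034). Thbs1, a matrix protein that binds plasminogen, dipped at day 3 (-1.40 ± 0.12, adjusted p = 2.8e-06) and was 1.71 ± 0.12 higher at day 5 than at day 3 (adjusted p = 9.4e-07).

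Lists of markers of other cell types were also read, with the share of all genes called beside the counts. All 15 markers of primitive and parietal endoderm were at or above the median signal of all genes. At day 5, when Plat, F3 and Thbd were highest, 12 of these markers were higher and 2 lower. That was 93.3% of the list, against 35.0% of all genes and 52.6% of genes at or above the median. At day 3, 8 were higher and 3 lower (73.3%, against 26.6% and 39.4%). At day 1, 4 were higher and 1 lower (33.3%, against 10.9% and 17.6%). The summed linear signal of the list was 35428 to 37707 at day 0, 39357 to 40443 at day 1, 41087 to 44467 at day 3 and 56793 to 65283 at day 5. Of 12 measured trophoblast markers 5 were higher and 0 were lower at day 5 (41.7%, against 35.0% of all genes). Their sum was 4857 to 5714 at day 0, 4774 to 5191 at day 1 and 5613 to 6077 at day 3. At day 5 it was 15147 to 17267. The defining markers Cdx2, Elf5, Gata3 and Hand1 were among 7 under the median signal. The trophoblast list also names the keratins Krt7, Krt8 and Krt18, and a linear sum is carried most by its brightest genes. The part of either the endoderm or the trophoblast list in the rises of Plat, F3 and Thbd was not tested.

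Of 17 fibroblast markers 1 was higher and 9 were lower at day 3 (58.8%, against 26.6% of all genes). Day 3 was also the day of the lowest Plau, Procr, Serpinb9 and Serpinb9b signals. At day 5, 2 fibroblast markers were higher and 4 were lower (35.3%, against 35.0% of all genes). Only 6 of these 17 markers were at or above the median signal. Their sum was 3363 to 3805 at day 0, 3237 to 3343 at day 1, 2360 to 2425 at day 3 and 3020 to 3407 at day 5. Of 10 blood cell markers 0 were higher and 2 were lower at day 3 (20.0%, against 26.6% of all genes). Only 2 of these 10 were at or above the median signal. Blood cell sums were 1381 to 1408 at day 0, 1359 to 1475 at day 1 and 953 to 1016 at day 3. At day 5 they were 1033 to 1227. Of 10 endothelial markers, 6 at or above the median signal, 0 were higher and 5 were lower at day 3 (50.0%). Endothelial sums were 2275 to 2598 at day 0, 2246 to 2285 at day 1, 1775 to 1980 at day 3 and 1822 to 2107 at day 5. The part of these cell types in the day 3 dip was not tested. Of 11 visceral endoderm markers 5 were higher and 0 were lower at day 1 (45.5%, against 10.9% of all genes). At day 5, 1 was higher and 2 were lower (27.3%, against 35.0%). Visceral endoderm sums were 6635 to 6900 at day 0, 9136 to 9197 at day 1 and 6856 to 7380 at day 3. At day 5 they were 2818 to 3667. Afp, Ttr and Apoa1 were under the median signal.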

How the data were processed

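Per the labels and the methods, total RNA of Esrrb_R cells at days 0, 1, 3 and 5 was hybridized to 12 arrays. The authors normalized them with the Robust Multichip Average in Affymetrix Expression Console (version not given in the sources used here) and deposited 1 log2 signal for each probe set on each array, between 1.61 and 14.69. This method smooths dim probe sets and understates their changes.

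Of 35557 probe sets, 21789 had 1 symbol in the platform annotation, 1621 several and 12147 none. Identifiers of 21698 were found in a RefSeq table of GRCm38.p6, which changed 0 symbols. Single-symbol probe sets were averaged per gene (19938 genes) and tested with limma 3.58.1 in R 4.3.3 in 1 model with 4 day means (8 residual and 4.63 prior degrees of freedom). The Benjamini-Hochberg adjustment ran over the 19938 genes, with a threshold of 0.05. The script was tested on simulated data. SDs are over 3 arrays. Python 3.11.15 (pandas 2.3.3, numpy 2.4.6) made the tables and matplotlib 3.10.9 the plots.

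Named members were those with a role in plasminogen activation, its inhibition or clotting, and others called with a change of at least 0.5 in size against day 0. Other members named with values (Serpinb5, Serpinb6a, Serpinb6b, Serpini2, Serpine3, Serpina1c and Serpinb9d) were chosen after their values were seen. The members and lists were chosen with earlier results of these data known. Alternatives were a replicate block, the brightest probe set per gene, genes at or above the median signal, quantile normalization, a trended robust prior, array weights, every probe set, leaving out each array, and the methods' one-way analysis of variance. No scan dates or batches were given. Some genes of these families and the other assays of the study are not reported here.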

Additional observations from a re-analysis of the deposited data

Results flagged for a closer look

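Procr and Serpinb9 were on opposite sides of day 0 at days 3 and 5, with calls at both, and the difference between the days was itself called. Procr changed by 0.24 at day 5 and by -0.56 at day 3, a difference of 0.80 (adjusted p = 2.2e-05 from limma). Its day 5 call (adjusted p = 0.045) was lost in 9 of 12 fits without 1 array (adjusted p up to 0.13), with quantile normalization (0.092), with array weights (0.096) and with every probe set tested (0.08). Serpinb9 changed by 1.00 at day 5 and by -0.69 at day 3, a difference of 1.69 (adjusted p = 1.1e-06). The comparisons share the day 0 arrays.

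Outside the single-symbol probe sets, 5 probe sets with several symbols named serpin families that hold members. Of the 3 that name Serpinb9d, Serpinb9e, Serpinb9f and Serpinb9g together, 2 were higher at day 5 than at day 0, by 0.23 (adjusted p = 0.044 from limma on every probe set) and 0.27 (adjusted p = 0.0097). They cannot be assigned to 1 gene. The single-symbol probe set of Serpinb9e was 0.59 higher, and that of Serpinb9d changed by -0.09.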

How the results depend on the processing

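Under the alternatives run, no change of a named member that was called reversed its direction. At day 1 the count of higher members, 1, was 3 among genes at or above the median signal, with a trended robust prior and with array weights, and 1 to 3 over the fits without 1 array (3 without day 3 replicate 1, and 2 without day 1 replicate 3, day 5 replicate 1 or day 5 replicate 2). The count of lower members at day 1, 3, was 5 with a trended robust prior and with array weights, 1 with every probe set tested, and 1 to 4 without 1 array (1 without day 0 replicate 1, day 0 replicate 2 or day 1 replicate 1). Calls over all 19938 genes moved too, from 1286 higher and 894 lower at day 1 in the main fit. They were 1746 and 1194 with the trended robust prior, and 1787 and 1234 with array weights. Among genes at or above the median signal alone, 17.5% were higher. Without those 3 arrays in turn, 596, 597 and 550 genes were lower. Calls over every probe set were not counted. Members higher at day 3 against day 1, 3, were 5 with a trended robust prior and with array weights. Of all genes 1834 were higher in the main fit, 2124 with that prior and 2458 with array weights. Keeping genes at or above the median signal leaves 11 members, of which 3 were lower at day 3 (against 24.1% of all genes kept), 6 higher and 2 lower at day 5 (30.8% and 29.3%), 4 lower at day 3 against day 1 (24.0%), 7 higher at day 5 against day 3 (25.7%) and 11 called by the F test (78.2%). The methods' one-way analysis of variance with Bonferroni adjustment and a total fold over 2 called 4 members (F3, Plat, Serpinb9b and Thbd) and 2.11% of all genes. With the replicate block, 111 of 115 changes of named members kept their side of the threshold, 3 lost it (Tfpi at day 1, adjusted p = 0.076, and at day 3, 0.06, and Serpinb1a at day 3 against day 1, 0.064) and Procr at day 1 gained it (0.049). The labels do not say whether replicate numbers pair the arrays. Deviations of same-numbered arrays correlated from -0.17 to 0.071 over 18 pairs. Those of differently numbered arrays correlated from -0.13 to 0.18 over 36 pairs, so no shared effect of the number was seen. Calls at days 3 and 5 against day 0 for Plat, F3, Serpinb2, Serpinb9 and Serpinf1, at day 3 for Plau and Serpinb9b and at day 5 for Thbd, Plaur and Serpini1 were kept in all 12 fits without 1 array. For the 45 members under the median signal, background can hide a change, so a change that was not called may still be present.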
